A study of Mus musculus with 4 samples.

Results

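The cells described here were taken from mouse gingiva by their counts of 4 genes proposed as markers of salivary gland epithelium. A cell was included where unique molecular identifiers (UMIs, each standing for 1 captured transcript) of Aqp5, Muc19, Muc5b and Bhlha15 summed to at least 3. It also had to hold fewer than 10 UMIs of Reg3g with Bpifa1, fewer than 10 of Obp1a, Obp1b and Mup4, fewer than 10 of Krt5 with Krt14, and 0 of Ptprc. The rule found 119 of 31150 cells, or 0.382%. All 119 held Aqp5, none held Muc19 or Muc5b, and Bhlha15 never reached 3 UMIs in a cell, so they are called the Aqp5-selected cells.

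Gingiva was dissociated and sequenced as single cells in 4 libraries, 1 for each combination of genotype and treatment. The genotype labels were Itga9-Lyz2-cHet and Itga9-Lyz2-cKO, names that point to a conditional Itga9 allele and to Lyz2, a gene of myeloid cells. Treatment was control or periodontitis (PD), in which a silk suture and Porphyromonas gingivalis were placed at the maxillary second molar and gingiva was taken after 14 days. The groups are named cHet control, cHet PD, cKO control and cKO PD, and every set of 4 values below is in that order. The number of animals in a library is not given in the labels. One label names 10x Genomics, while the protocol describes BD Rhapsody capture. Each group was a single library, so differences between groups have no replicate check and none has a p-value. All intervals are 95% intervals for counting error only.

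Salivary glands are built of acini, which make the fluid and proteins of saliva, and ducts, which change its salts on the way to the mouth. Serous acinar cells take up chloride through the basolateral cotransporter Slc12a2 and release it through the calcium-gated channel Ano1, and water follows through the apical channel Aqp5. Mucous cells pack the gel-forming mucins Muc5b and Muc19. Gland cells also carry antibody into the secretion through Pigr and release antimicrobial proteins such as lactoferrin (Ltf). Aqp5, Ltf and Pigr are not private to salivary glands: other exocrine glands of the head, such as tear and nasal glands, use them too.

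The libraries held 21368197 to 62914870 UMIs in 6684 to 9331 barcodes. Cells with at least 200 genes and at most 20% mitochondrial UMIs numbered 7915, 8967, 7673 and 6595. The smallest deposited barcode held 1501 UMIs in the control libraries and 500 in the PD libraries. Pairs of libraries shared 65 to 116 barcodes, and no Aqp5-selected cell had a barcode in common with one in another library. Doublets were not called.

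The Aqp5-selected cells were far deeper than their neighbours. Their median depths were 27027, 10563, 23721 and 16276.5 UMIs, against 5580, 2967, 5359 and 2509 in the other cells, and their median gene numbers were 4598.5, 3136, 4635 and 3901.5. Their median mitochondrial shares were 13.1%, 11.8%, 11.7% and 7.64%. A minimum of 3 UMIs is met more easily by a deep cell, and the share of the depth in the selection was not tested.

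Aqp5, the water channel that chose the cells, summed to 339, 13, 454 and 121 UMIs in them. In cHet control its count per cell ran from 3 to 36 with a median of 6.5, and in cKO control from 1 to 37 with a median of 6. In cKO PD it ran from 3 to 9 with a median of 4, and the 3 cells of cHet PD held 3, 7 and 3. Bhlha15, a transcription factor of secretory acinar cells, had 8 UMIs in 7 cells of cHet control and 13 UMIs in 10 cells of cKO control, and 0 UMIs in both PD libraries. For Muc19 and Muc5b, 0 of 36, 0 of 52 and 0 of 28 cells allow shares of cells with a UMI of up to 8.33%, 5.77% and 10.7% in cHet control, cKO control and cKO PD. Aqp5 itself was rare in leukocytes: 0.543%, 0%, 1.49% and 0.609% of Ptprc-positive cells held a UMI, at median depths of 5878.5, 1453, 5270 and 1840 UMIs.

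The labelled identity held only in part. Of 27 listed serous and secreted saliva genes, 25 were in the files and 7 reached 20 UMIs over all selected cells: Car6, Wfdc18, Pigr, Dcpp3, Pip, Dcpp1 and Smr3a. Another 13 were at 0, among them Bpifa2, Prol1, Smr2, Smgc, Lipf, Azgp1 and Lyz1, and Amy1 had 2, 0, 4 and 0 UMIs. Of 20 mucous cell genes only Creb3l1 and Muc4 reached 20 UMIs, 11 were at 0, and 106 of the 130 Muc4 UMIs of cHet control lay in 1 cell. The cells are therefore described by their leading genes and given no other name.

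Those leading genes were the same few in most cells. Car6, a secreted carbonic anhydrase of saliva, made up 41026, 26953, 41778 and 42169 CPM (a gene's summed UMIs scaled to 1000000 summed UMIs of the same cells). The other cells of the libraries held 739 CPM on average, so Car6 stood 55.3-fold higher with 10 CPM added to both. Its count per cell had medians of 923 in cHet control, 850.5 in cKO control and 693 in cKO PD, with highest cells at 2037, 2317 and 1518. Ltf, the iron-binding lactoferrin, followed with 33373, 34658, 29777 and 36859 CPM, 36.5-fold above the other cells. Both genes were of like level in the 3 libraries with more than 3 selected cells.

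**Figure D1:**
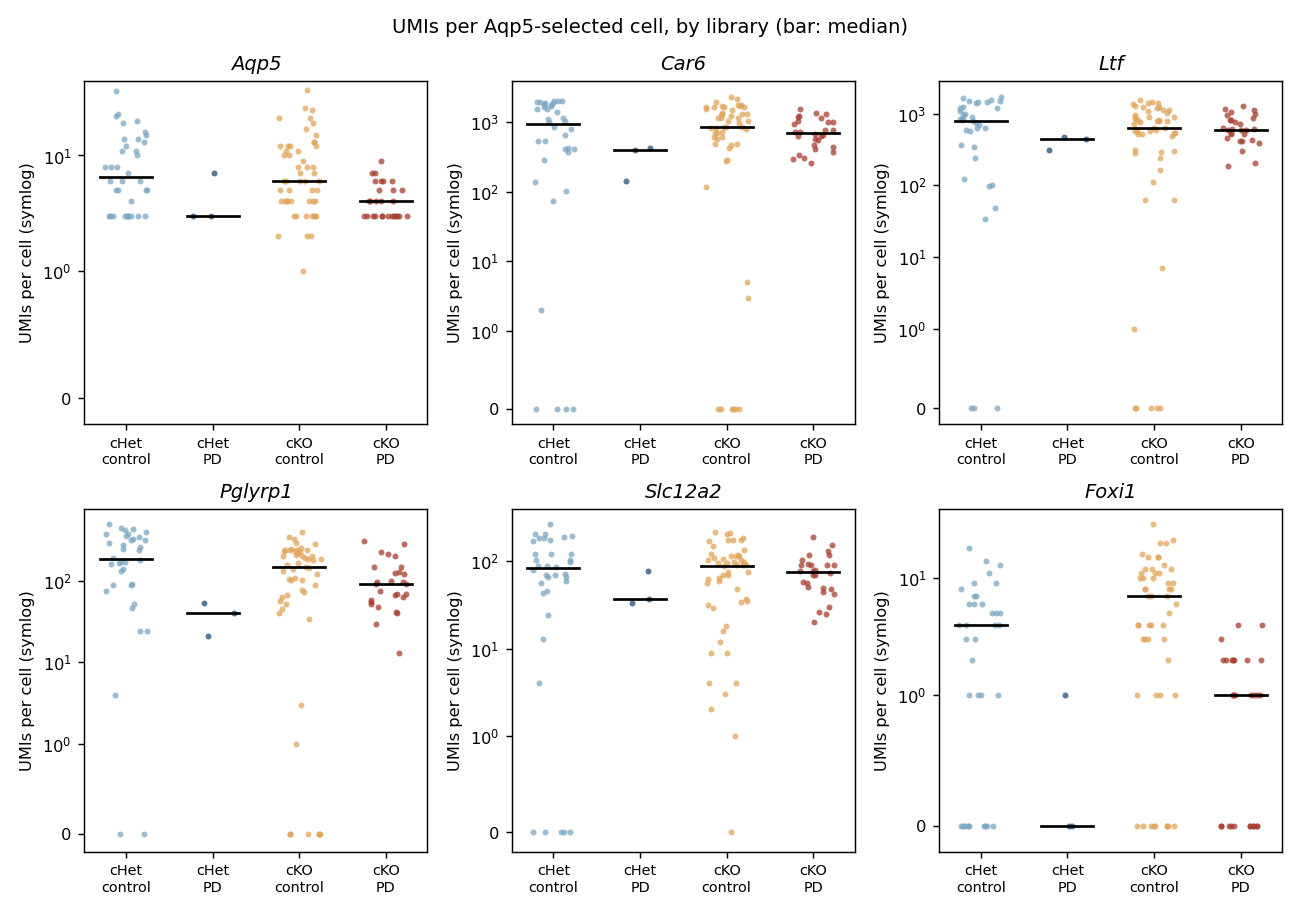
UMIs per Aqp5-selected cell (vertical axis, symmetric log scale, 1 point per cell) in the 4 libraries, for Aqp5, Car6, Ltf, Pglyrp1, Slc12a2 and Foxi1, with the median as a bar. Car6 was above 200 UMIs in every cell of cKO PD, where the lowest held 256, while 4 cells of cHet control and 6 of cKO control held 0.

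Pglyrp1, a secreted bacterial peptidoglycan-binding protein, reached 9161, 3274, 6602 and 6111 CPM and stood 54.7-fold above the other cells. Mfsd4a, a membrane transporter of the major facilitator family, reached 11598, 23171, 13160 and 15372 CPM. Pigr, the receptor that carries polymeric antibody across an epithelium, reached 3568, 3613, 2725 and 5851 CPM. The secretoglobins Scgb2b27 and Scgb1b27, small secreted proteins, reached 10426, 10019, 9772 and 4988 CPM and 7295, 2230, 7197 and 2225 CPM. These 2 genes have close relatives in the genome, so reads may have been divided or lost among copies and their levels are uncertain. The milk protein gene Csn3 had 1625, 1891, 1823 and 4227 CPM but lay in 38.9%, 66.7%, 40.4% and 92.9% of the cells. All 25 leading genes were chosen on these cells, and over all genes with at least 50 UMIs in the selected cells of a library 21.9% exceeded the level of the other cells by 2-fold or more and 10.2% fell short of it by as much.

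**Figure D2:**
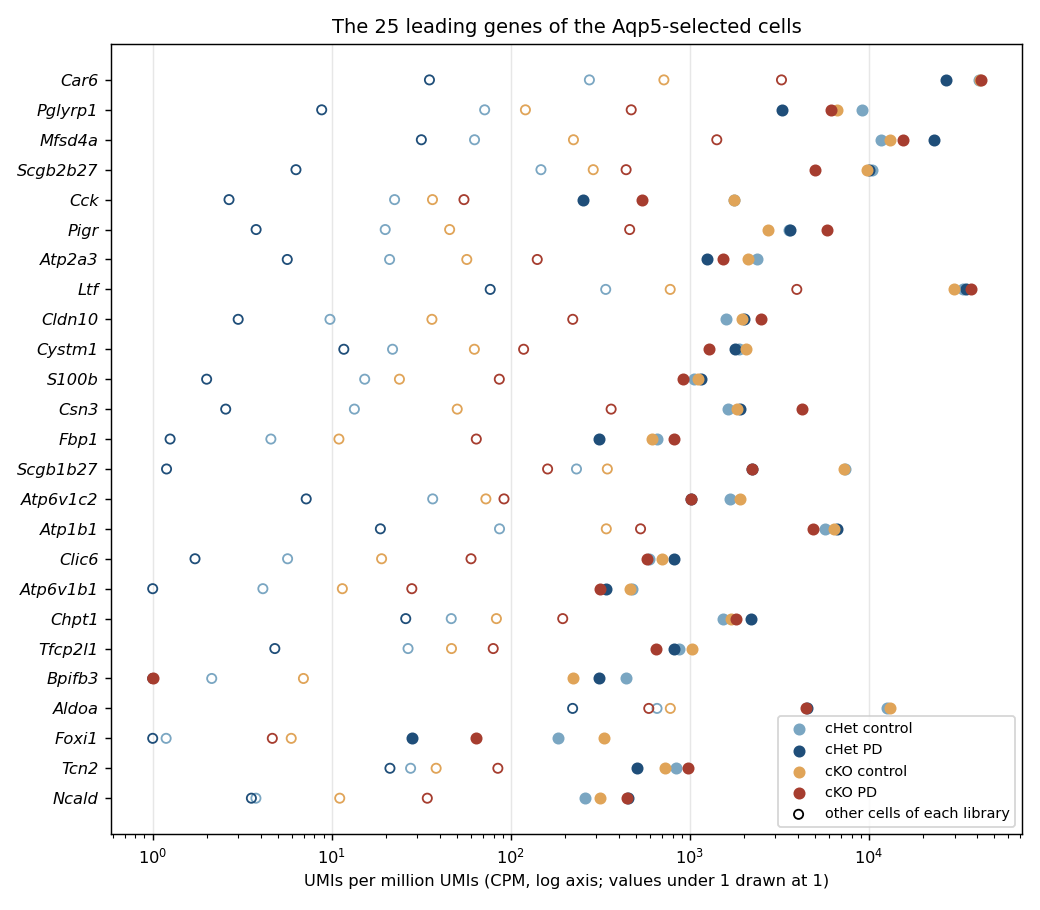
Level in CPM (horizontal axis, log scale) of the 25 genes with the largest ratio of Aqp5-selected cells to other cells, for the 4 libraries, with filled circles for the selected cells and open circles for all other cells of the same library. Car6 and Ltf stood highest, and Foxi1, Cck and Scgb1b27 were lower in both PD libraries than in both controls.

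In the annotation of GRCm38, the build the files use as mm10, Car6 lies at chr4:150187015-150201332 on the minus strand and Ltf at chr9:111019271-111042767 on the plus strand. Scgb2b27 (chr7:34011921-34013942, minus strand) and Scgb1b27 (chr7:34021483-34022881, plus strand) are neighbours that point away from each other with 7540 bases between them. The 250 bases before the RefSeq start of these 4 genes are shown because Car6 and Ltf are the most abundant leading genes and the secretoglobin pair was lower in cKO PD than in cKO control. They come from RefSeq promoters of GRCm38.p6, and lie at chr4:150201136-150201385 (Car6, minus strand), chr9:111019042-111019291 (Ltf, plus strand), chr7:34013943-34014192 (Scgb2b27, minus strand) and chr7:34021231-34021480 (Scgb1b27, plus strand). Each is written 5′ to 3′ on the gene's strand, with capitals where the letters AGGAAG or CTTCCT (ETS factors, both strands) or ACAAAG or CTTTGT (SOX factors, both strands) were found.
Car6: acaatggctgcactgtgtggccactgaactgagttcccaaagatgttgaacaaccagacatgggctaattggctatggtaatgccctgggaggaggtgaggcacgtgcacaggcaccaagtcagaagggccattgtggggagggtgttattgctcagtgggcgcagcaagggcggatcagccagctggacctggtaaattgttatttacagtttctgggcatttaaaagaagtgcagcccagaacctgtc
Ltf: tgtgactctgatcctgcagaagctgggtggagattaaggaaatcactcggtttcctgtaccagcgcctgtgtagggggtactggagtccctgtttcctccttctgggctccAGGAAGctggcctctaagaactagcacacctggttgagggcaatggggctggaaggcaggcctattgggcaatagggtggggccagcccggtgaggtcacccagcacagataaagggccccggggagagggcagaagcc
Scgb2b27: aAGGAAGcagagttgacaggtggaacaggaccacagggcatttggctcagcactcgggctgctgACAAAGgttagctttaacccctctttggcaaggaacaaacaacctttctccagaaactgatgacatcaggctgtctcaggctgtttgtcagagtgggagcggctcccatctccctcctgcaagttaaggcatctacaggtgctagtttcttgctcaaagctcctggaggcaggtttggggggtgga
Scgb1b27: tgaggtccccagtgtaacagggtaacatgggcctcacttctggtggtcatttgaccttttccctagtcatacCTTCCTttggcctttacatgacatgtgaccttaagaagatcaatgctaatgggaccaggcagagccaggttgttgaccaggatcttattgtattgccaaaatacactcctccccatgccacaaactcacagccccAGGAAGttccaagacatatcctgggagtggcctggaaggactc

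ETS letters stood in the windows of Ltf, Scgb1b27 and Scgb2b27, SOX letters in that of Scgb2b27, and neither in that of Car6. Of the 25 leading genes 20 had an entry in the promoter table. Among these, 9 held the ETS letters, 4 the SOX letters and 2 the forkhead letters TGTTTA or TAAACA. Over all 32851 promoter windows of this length the shares were 29.5%, 16.5% and 12.03%, and the SOX and forkhead counts were near theirs. ETS, SOX and forkhead factors were among the genes the cells expressed, and their part in these levels was not tested. A match is a string of letters, not a measured binding site.

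Many fluid secretion genes were high in the selected cells, and 1 of them, Aqp5, was high by the rule. Of 37 listed genes of ion and water transport and secretagogue receptors, 36 were in the files, 26 reached 20 UMIs, 17, Aqp5 included, were at least 2-fold higher than in the other cells and 2 lower, while over all genes of that depth 11.3% were higher and 10.9% lower. Slc12a2, the cotransporter that loads chloride, had 3973, 4177, 3783 and 4314 CPM, and Ano1, the apical chloride channel, 622, 1468, 664 and 990 CPM. Atp1b1, a subunit of the sodium pump, had 5698, 6632, 6397 and 4875 CPM, and Car12, a membrane carbonic anhydrase, 2258, 3810, 2732 and 3836 CPM. The potassium channel Kcnn4 had 258, 113, 263 and 113 CPM. The muscarinic receptor Chrm3, through which nerves drive salivation, had 56.2, 56.4, 82.5 and 127 CPM.

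Transcription factors of exocrine glands were also high: of 23 listed, 19 reached 20 UMIs, 15 were at least 2-fold higher and none lower. The shares over all genes of that depth were 11.3% and 10.9%. The ETS factor Ehf had 1475, 706, 1910 and 1240 CPM, Sox9 had 643, 1355, 975 and 942, and Tfcp2l1, a factor of ducts, had 867, 818, 1030 and 647. Sox10, which marks acini and intercalated ducts, had 124, 84.7, 153 and 49.6 CPM against 1.504, 0.528, 5.57 and 6.79 in the other cells. Elf5 had 127, 84.7, 101 and 55.5 CPM. Foxi1, a forkhead factor of cells that pump protons or chloride, had 184, 28.2, 329 and 63.5 CPM, and it lay in 73.1% of the cells. The proton pump subunits Atp6v1b1 and Atp6v1c2, which are expressed in such cells, were both among the 25 leading genes, with 472, 339, 460 and 315 CPM and 1673, 1016, 1903 and 1012 CPM.

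Duct genes were mixed. Of 27 listed, 17 reached 20 UMIs, 11 were at least 2-fold higher and 1 lower. All genes of that depth, with 11.3% higher and 10.9% lower, are the measure for each list here. The simple keratins Krt8 and Krt18 had 555, 480, 338 and 940 CPM and 903, 1044, 632 and 1176 CPM, and the tight junction gene Cldn10 had 1597, 2004, 1952 and 2497. The duct kallikrein Klk1 had 2, 0, 4 and 1 UMIs, Klk1b5, Klk1b22 and Klk1b3 were at 0, and Ascl3, a factor of duct cells, had 3, 0, 0 and 0 UMIs. Genes of the secretory pathway were broadly present, and 29 of the 31 in the files reached 20 UMIs. Of these 5 were at least 2-fold higher and none lower, where 11.3% and 10.9% of all genes were. Xbp1, which drives secretory capacity, had 480, 423, 508 and 738 CPM and was among the 5. O-glycosylation enzymes had 10 of 22 at 20 UMIs and 4 of those higher.

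Genes of leukocytes and keratinocytes were low, while those of airway and nasal cells varied between libraries. All 18 leukocyte genes were under 20 UMIs, 12 of them at 0, and their summed level was 12.9, 0, 3.44 and 33.7 CPM. Keratinocyte genes summed to 6982, 762, 1665 and 2025 CPM, against 58603, 53112, 52489 and 51916 in the other cells, and 18 of the 19 measured were at least 2-fold lower. Krt5 and Krt14 were capped by the rule. Of 12 myoepithelial genes 6 were measured, 1 higher and 3 lower. The 16 fibroblast, vessel and muscle genes had 4 measured and all 4 lower, and summed to 10.5, 0, 177 and 377 CPM. Cell cycle genes had 9 of 21 measured, none higher and 7 lower. Airway and nasal epithelium genes had 5 of 20 measured, with 1 higher and 1 lower, and odorant-binding and nasal gland genes 4 of 12, with none higher and 2 lower, and genes of both lists were partly capped by the rule. The airway and nasal epithelium genes summed to 4563, 480, 2533 and 1252 CPM, against 1417, 268, 4841 and 1298 in the other cells, so they were higher in the selected cells of the cHet libraries. The odorant-binding and nasal gland genes summed to 726, 28.2, 393 and 87.3 CPM, against 43.8, 1.56, 9227 and 27.2, and were lower only in cKO control. Of 13 measured mucosal defence genes 5 were higher and 3 lower, of 13 interferon genes 5 higher, and of 27 immediate early and dissociation genes 6 higher and 7 lower. For every list of this paragraph, the shares over all genes with 20 UMIs were 11.3% higher and 10.9% lower.

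UMIs of Car6 and Ltf were also found in cells that should lack them. A Car6 UMI was seen in 13.04%, 0.268%, 14.9% and 13.3% of Ptprc-positive cells, and in 88.9%, 100%, 88.5% and 100% of the selected cells. The Car6 level of the Ptprc-positive cells was 47.4, 1.61, 160.1 and 748 CPM. In cKO PD 1 Ptprc-positive cell met every other limit of the rule. Pigr was seen in 3.26%, 0%, 1.98% and 4.14% of Ptprc-positive cells. Ltf was seen in 25.5%, 2.05%, 14.9% and 48.6% of them, but Ltf is also a granule gene of neutrophils. At the lower depth of leukocytes given above, these shares are the background for the selected cells.

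The selected cells were not all alike. Car6 reached 10 UMIs in 106 of the 119: in 31 of 36, 3 of 3, 44 of 52 and 28 of 28. Of the 5 low cells of cHet control 2 were led by cornified layer genes. These 2 held 1419 and 1500 Krt10 UMIs, against 1 to 24 in the other 3, and all 937 UMIs of Lor, a cornified envelope protein. The other 3 were led by Gsto1, a glutathione transferase with 2128 UMIs in these 5 cells. The 5 cells held 7.62% of the UMIs of the library's selected cells and 0 UMIs of Slc12a2. Of the 8 low cells of cKO control 6 held Adh7, an alcohol and retinol dehydrogenase, and 6 held the taurine transporter Slc6a6, while 1 was led by Lcn11 and Crisp1. The 8 cells made up 5.46% of that library's selected UMIs. Of the 2 without Adh7, 1 held 113 Ltf, 167 Wfdc18 and 16 Slc12a2 UMIs and the other 53 Scgb1b27, 28 Scgb2b27 and 4 Foxi1 UMIs, so both shared genes with the Car6-rich cells.

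Clustering of the 119 cells, which used the same counts, gave 3 groups. The first, 72 cells (25, 2, 41 and 4), was led by Cck, Aldoa, Bpifb3, Scgb1b27 and Foxi1. The second, 22 cells (11, 0, 11 and 0), was led by Gsto1, Lor, Krt2 and Dcpp3, and its Car6 level was 13102 CPM against 47862 in the first. The third, 25 cells (0, 1, 0 and 24), was led by Lcn2, Tm4sf1, Lif and Plau. With 1 library per group, a cluster held mostly by cKO PD may be that library.

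The minimum of 3 UMIs cut through a continuous range in cKO PD. There 34 cells held 2 UMIs of the 4 genes and met the other limits, and all 34 had at least 10 Car6 UMIs, with a median of 636. The 13 cells with exactly 3 UMIs had a median of 629. In cHet control only 6 of 19 cells with 2 UMIs had 10 Car6 UMIs, and in cKO control 7 of 22, whereas 8 of 9 and 6 of 10 cells with 3 UMIs did. The caps mattered mostly in cKO control, where 252 cells had 3 marker UMIs and 52 were kept, against 36 of 46, 3 of 3 and 28 of 30 in cHet control, cHet PD and cKO PD. Of those passed over in cKO control, 23 exceeded only the limit on Reg3g and Bpifa1 and had 12.3 CPM of Car6. Another 37 exceeded only the limit on Obp1a, Obp1b and Mup4, with 10136 CPM of Car6, 12967 CPM of Ltf and 90.5 CPM of Bhlha15.

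The Aqp5-selected cells made up 0.455% (0.319 to 0.629%) of cells in cHet control, 0.0335% (0.0069 to 0.0977%) in cHet PD, 0.678% (0.507 to 0.888%) in cKO control and 0.425% (0.282 to 0.613%) in cKO PD (exact binomial intervals). Only 3 such cells were found in cHet PD. The share in cHet PD was 0.0736 of that in cHet control (0.0145 to 0.233), and that in cKO PD 0.626 of that in cKO control (0.381 to 1.01), an interval that includes 1. The control share was 1.49 times as high in cKO as in cHet (0.956 to 2.35), also including 1. How much gland lies beside gingiva in a dissected piece is not recorded, and its part in these shares was not tested.

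Because Aqp5 itself was lower in cKO PD, the cells were also counted by their leading genes, a choice made after these values were seen. Cells with at least 100 UMIs each of Car6 and Ltf numbered 46, 6, 91 and 164. None of the rule's limits on other genes, Ptprc included, was applied to these cells. At least 3 Aqp5 UMIs were held by 30, 3, 57 and 30 of them. The Aqp5 rule had found 29, 3, 42 and 28 of them, or 33.2% of the 307 and 17.1% of those in cKO PD. Their shares were 0.581%, 0.0669%, 1.19% and 2.49%. By this count the share in cKO PD was 2.10 times that in cKO control (1.61 to 2.74), where the Aqp5 rule had given a lower share, and cHet PD remained lower than cHet control at 0.115 (0.0402 to 0.270). Aqp5 stood at 345 (308 to 386), 214 (117 to 359), 310.3 (285 to 337) and 128 (113 to 145) CPM in the Car6 and Ltf cells, and 52 of the 164 in cKO PD held no Aqp5 UMI, at a median depth of 10225.5 UMIs. The direction of the cKO comparison differed between the Aqp5 rule and the count by Car6 and Ltf. A mitochondrial cap of 10% in place of 20% left 23 Aqp5-selected cells (0.405%) in cKO PD and 13 (0.358%) in cKO control. That cap left out 910 of the kept cells of cKO PD and 4045 of those of cKO control. The order of the 2 shares was then the other way, but at the 20% cap their ratio had an interval of 0.381 to 1.01.

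**Figure D3:**
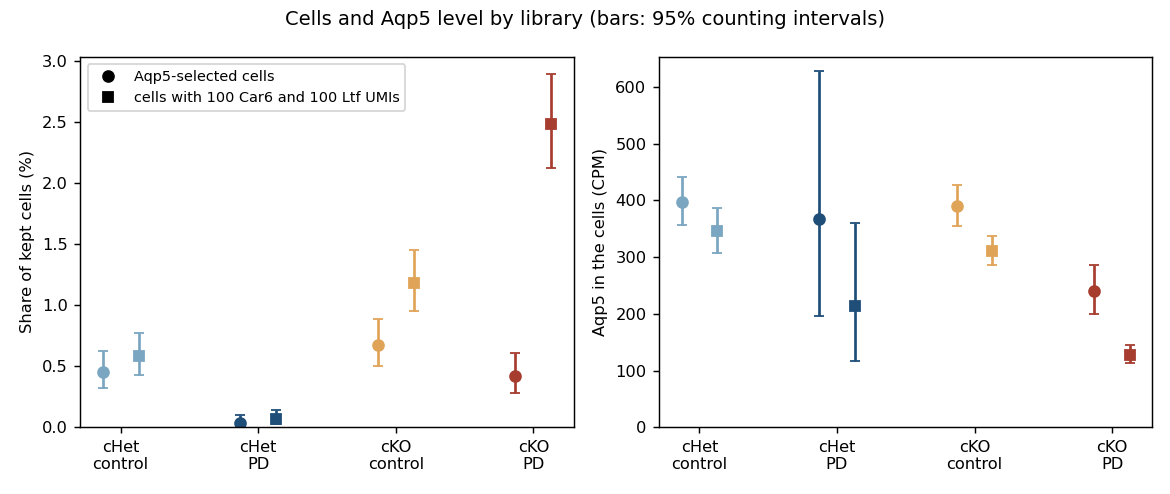
Share of kept cells in percent (left) and Aqp5 level in CPM (right) for the 4 libraries, with circles for the Aqp5-selected cells, squares for cells with 100 UMIs each of Car6 and Ltf, and bars for 95% counting intervals. In cKO PD the squares stand at 2.49% and 128 CPM, the highest share and the lowest Aqp5 level of the 4 libraries.

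Itga9, the gene named in the genotype, was near the limit of detection in the selected cells, with 9, 1, 7 and 3 UMIs in 7, 1, 3 and 2 cells. Lyz2 had 0, 0, 0 and 2 UMIs. Counts this low cannot show whether Itga9 differed between the genotypes in these cells.

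Folds between libraries were computed where both held at least 25 selected cells, a minimum chosen after the numbers were seen, since only cKO control reached the 40 first set. That left cKO PD against cKO control and cKO control against cHet control, which share the cKO control library. To be called, a gene needed a ratio of 2-fold or more after adding 10 CPM to both, 50 UMIs in 1 library, and an interval of its ratio that excluded 1.

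Mucosal defence genes were more often higher, and gland transcription factors more often lower, in the Aqp5-selected cells of cKO PD than in those of cKO control. Of 3343 genes considered, 208 (6.22%) were called higher and 336 (10.1%) lower, with a median log2 ratio of -0.12. With 50 CPM added in place of 10, the calls were 146 and 121. Lcn2, an antimicrobial siderophore-binding protein, summed to 396 UMIs in cKO PD and 19 in cKO control, or 785 (710 to 867) against 16.3 (9.83 to 25.5) CPM, 48.1-fold higher (30.4 to 80.8). Its count per cell had a median of 6 and a highest value of 92 in cKO PD, where 25 of 28 cells held it, and in cKO control 10 of 52 cells held 1 to 4. The groups overlapped only at low counts. Neutrophils make Lcn2, and it was seen in 64.1% of Ptprc-positive cells of cKO PD. Of the 68 T cells there, 8.82% held it, at a median depth of 1317.5 UMIs. The selected cells, of which 89.3% held it, were deeper, at a median of 16276.5 UMIs. S100a8, a neutrophil gene, was at 20925 CPM in those Ptprc-positive cells against 3095 for Lcn2. S100a8 was seen in 21.4% of the selected cells and 16.2% of those T cells. At such unlike depths these shares cannot separate Lcn2 of the selected cells from RNA of neutrophils, whose part was not tested.

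Lif, a cytokine of the interleukin-6 family, had the largest log2 ratio with 10 CPM added, 5.16. It had 222 UMIs in 18 of 28 cells of cKO PD and 3 UMIs in 3 of 52 cells of cKO control, or 440 against 2.58 CPM, 171-fold higher (57.7 to 835). The other cells of the same libraries had 152 and 8.94 CPM. Plau, the urokinase that activates plasminogen, was 25.3-fold higher (16.2 to 41.6), with a highest count per cell of 37 in cKO PD and 3 in cKO control. Its receptor Plaur was 27.4-fold higher (13.4 to 65.3). The bacterial lipoprotein receptor Tlr2 was 20.5-fold, the membrane protein Tm4sf1 12.4-fold and the kinase gene Itpkc 13.1-fold higher. In the other cells of the same libraries Lcn2 was at 3.997 on the log2 scale, against 4.92 in the selected cells. Plau was at 2.25 there against 4.06, Plaur at 1.95 against 3.56, Tlr2 at 1.84 against 3.05 and Tm4sf1 at 2.36 against 3.58. Itpkc was at 0.548 against 3.19. These genes were thus higher in the other cells too, Itpkc the least. Tm4sf1 was found in all 28 cells of cKO PD, with a median of 48.5 UMIs, and in 28 of 52 cells of cKO control.

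**Figure D4:**
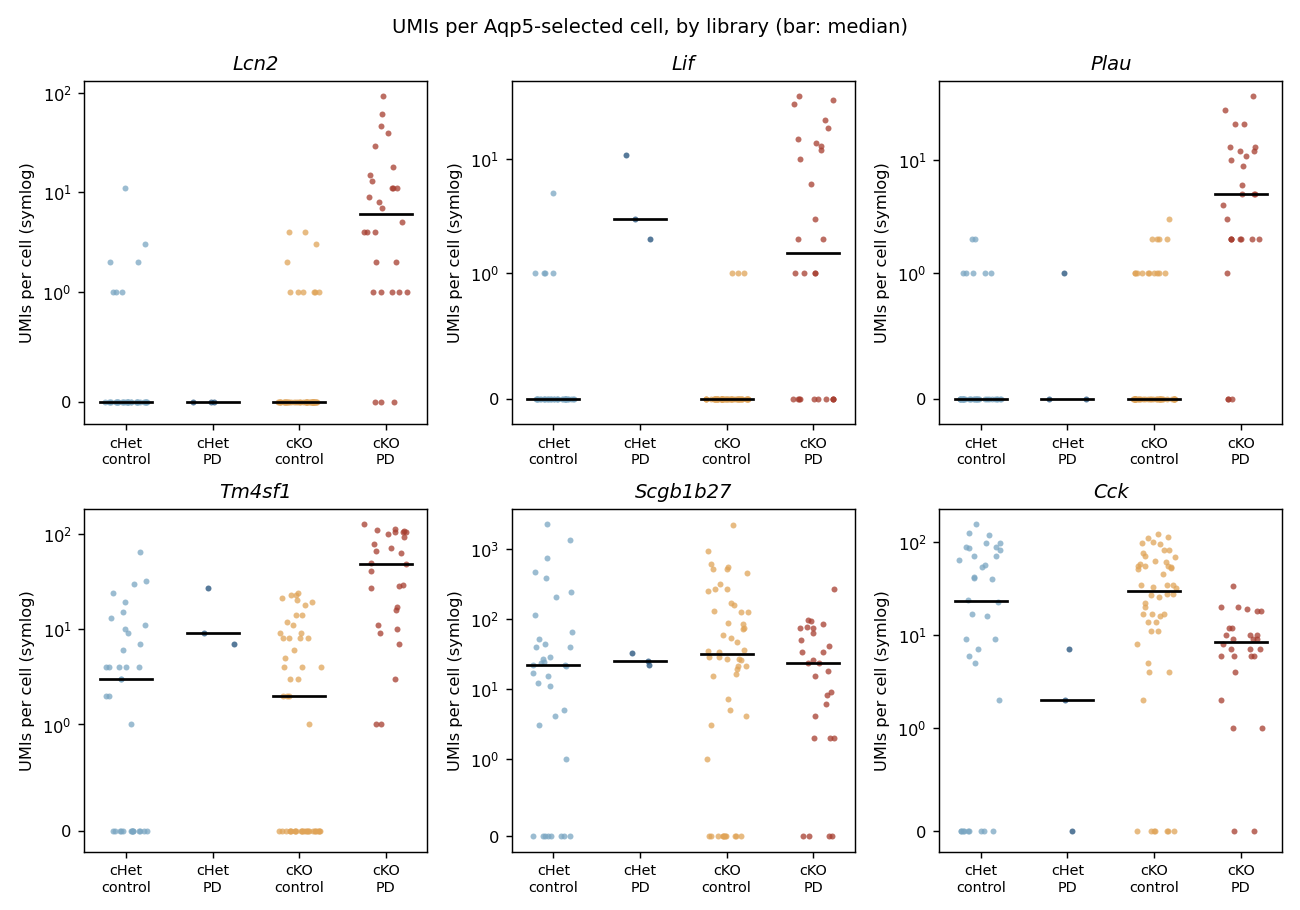
UMIs per Aqp5-selected cell (vertical axis, symmetric log scale, 1 point per cell) for Lcn2, Lif, Plau, Tm4sf1, Scgb1b27 and Cck in the 4 libraries, with the median as a bar. Lcn2, Plau and Tm4sf1 were high in most of the 28 cells of cKO PD, and the highest Cck count there was 34, against 123 in cKO control.

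The matrix genes Sparc, Col1a1 and Fn1 were also among the 10 largest ratios, and 1 cell of cKO PD held 104 of 134, 72 of 80 and 84 of 86 of their UMIs. Without that cell their log2 ratios were 2.09, 1.29 and -0.02, and none was called, with fewer than 50 UMIs of each left. Most UMIs of these 3 genes in the selected cells of cKO PD were thus those of 1 cell, whose part as a doublet was not tested. In the Car6 and Ltf cells, which include that cell, all 3 were called higher, at 17.01-fold, 145-fold and 50.1-fold. Their log2 ratios in the other cells of the libraries were 2.07, 4.40 and 3.76.

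The mucosal defence list was higher as a group. Of its 10 genes with 20 UMIs in either library, 7 were at least 1.5-fold higher and none lower, while over all 6097 genes of that depth 12.3% were higher and 22.8% lower, and the median log2 ratio was 1.05 against -0.14. The chemokine genes Cxcl1 and Cxcl2 were 1.94 and 1.00 higher on the log2 scale, the lipopolysaccharide receptor Cd14 2.14, Pigr 1.10 and the mucosal chemokine Ccl28 0.83. Pigr had 2950 UMIs in all 28 cells of cKO PD and 3172 UMIs in 45 of 52 cells of cKO control, or 5851 against 2725 CPM, 2.15-fold higher (2.04 to 2.26). Ltf was at 0.31 and Cxcl17 at -0.21. In the other cells of the libraries the median of the same list was 2.09.

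Transcription factors of the gland were more often lower: of 18 considered, 10 were lower and 4 higher, with a median of -0.64. Foxi1 summed to 32 UMIs against 383 and was at -2.21, and its highest count per cell was 4 in cKO PD and 29 in cKO control. The co-activator Cited4 was at -1.81, Creb3l1 at -1.59 and Sox10 at -1.45. Sox9 at -0.05 was close to level, and Foxa1 (0.95), Elf3 (0.83), Foxc1 (0.65) and Nfib (0.63) were higher. In the same direction, 10 of 24 ion and water transport genes were lower and none higher, with a median of -0.31. The lower ones included Kcnn4 (-1.15), the calcium release channel Itpr3 (-0.79) and Aqp5 itself (-0.68), which the rule used. Slc12a2 (0.19) and Ano1 (0.57), the chloride entry and exit genes, were not among them. In the Car6 and Ltf cells the medians were closer to 0, at -0.23 for the transcription factors and -0.0710 for the transport genes.

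Secreted products were split. The secretoglobin Scgb1b27 was lower at 2225 against 7197 CPM, a log2 ratio of -1.69, and Scgb2b27 lower at -0.97, just short of the 2-fold call. In cKO control 1 cell held 2188 of the 8378 Scgb1b27 UMIs. The median Scgb1b27 count per cell was 23 in cKO PD and 31 in cKO control, at median depths of 16276.5 and 23721 UMIs. Cck, a peptide hormone gene, was lower at 538 against 1752 CPM (-1.69). Bpifb3, of the family of lipid-binding secreted proteins, had 258 UMIs in 18 cells of cKO control and 0 in cKO PD. By the limit of its interval it was at least 30.1-fold lower. Wfdc18, a protease inhibitor-like secreted protein, was higher at 10725 against 4907 CPM (1.13), and Csn3 at 4227 against 1823 (1.21). Car6 was level at 0.01. The serous list had 2 of 7 genes higher and 4 lower with a median of -0.81, of which Dcpp3 and Dcpp1, at -3.30 and -2.64, rested on 1 cKO control cell each, with 968 and 104 UMIs. In the Car6 and Ltf cells the median of this list was 0.45.

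Of 4 odorant-binding and nasal gland genes all 4 were lower (median -2.18), and of 5 airway and nasal epithelium genes 4 were lower and none higher (median -1.61), and the medians in the other cells of the libraries were -6.73 and -2.11. Genes of both lists were partly capped by the rule. Their part in the other differences was not tested. In the duct list 4 of 13 genes were higher, led by the tight junction gene Cldn4 (2.79) and by Krt8 (1.45), Kit (0.97) and Krt18 (0.89), and 6 were lower, with a median of -0.53. In the secretory pathway list 5 of 27 were higher, among them the protein folding genes Pdia6 (1.66), Pdia4 (1.03) and Hspa5 (0.90), and 3 lower, with a median of 0.04. Of 8 O-glycosylation enzymes none passed 1.5-fold. Interferon genes had 4 higher and 3 lower of 10 (median 0.38), and immediate early and dissociation genes 8 higher and 9 lower of 25 (median -0.10), with the heat shock genes Hsph1 (1.95) and Hspa1b (1.76) high and the metallothionein Mt2 (-3.02) low. Myoepithelial genes (5 of 6 lower, median -1.71) and cell cycle genes (6 of 9 lower, median -1.68) were held in cKO control mostly by single cells: 1 cell had 67 of 70 Acta2 UMIs, 1 had 64 of 67 Mylk UMIs, 1 had 47 of 52 Stmn1 UMIs and 1 had all 33 Ube2c UMIs. Keratinocyte genes had 3 higher and 7 lower of 13 (median -1.01).

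**Figure D5:**
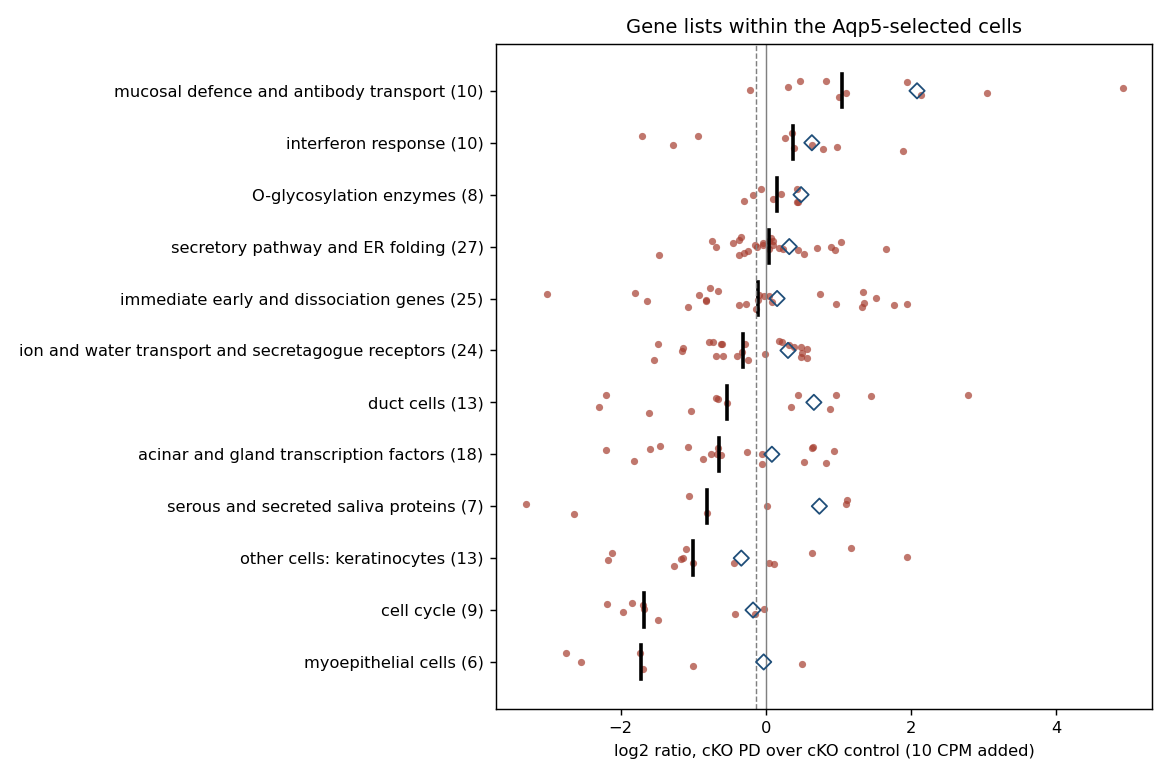
Log2 ratio of cKO PD over cKO control (horizontal axis, 10 CPM added) in the Aqp5-selected cells, 1 point per gene, for each list with at least 6 genes considered (number in brackets). Black bars are list medians, open diamonds the median of the same genes in the other cells, and the dashed line the median of all genes considered, -0.14. The mucosal defence list stands highest with a median of 1.05.

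Part of the difference was shared with the whole library. Of the 208 higher and 336 lower calls, 86 and 124 were also at least 2-fold apart in the same direction between the other cells of the libraries. Lif, Lcn2, Plau, Plaur, Tlr2 and Tm4sf1 were among those 86. Mt2, Fau and Gstm1, which were 8.47-fold, 8.43-fold and 8.002-fold lower in the selected cells, had log2 ratios of -3.29, -3.17 and -2.11 in the other cells. Foxi1, Cck and Scgb1b27 were at -0.12, 0.48 and -1.06 in the other cells, where Foxi1 had 5.94 CPM in cKO control and 4.65 in cKO PD. The Car6 and Ltf cells, of which there were 164 and 91, include most of the selected cells. They were not capped on other genes, and their odorant-binding and nasal gland list had a median of -8.02. In these cells 188 of the 208 higher and 219 of the 336 lower calls were called again. Lif, Lcn2 and Plau were 247-fold, 65.7-fold and 26.1-fold higher there and Foxi1 was at -2.22. Adh7 (at least 20.9-fold), Ccn1, Ap4e1, Abi3bp (at least 9.65-fold) and Ifi202b were also among the 10 largest lower ratios. They were not called when only cells with at least 10 Car6 UMIs were used. Of the 372 Krt2 UMIs of cKO control, 352 lay in 1 cell.

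The 3 cells of cHet PD allow no fold, and their values are given side by side with cHet control. They held 419, 145 and 391 Car6 UMIs and 476, 310 and 442 Ltf UMIs. Lif had 16 UMIs, in all 3 cells, which is 452 (258 to 733) CPM against 10.5 (4.82 to 20.0) in cHet control. Tm4sf1 had 43 UMIs, in all 3 cells, or 1214 (878 to 1635) CPM against 318 (281 to 358). Lcn2 had 0 UMIs, for which 3 counts allow up to 84.7 CPM, and Plau 1 UMI. Foxi1 had 1 UMI, or 28.2 (0.715 to 157) CPM against 184 (156 to 215), and Cck 9 UMIs, or 254 (116 to 482) against 1760 (1672 to 1851). Scgb1b27 stood at 2230 (1765 to 2779) against 7295 (7115 to 7479) CPM. However, 1 cell of cHet control held 2248 of its 6226 Scgb1b27 UMIs. The median count per cell was 25 in cHet PD and 22 in cHet control, at median depths of 10563 and 27027 UMIs. In the CPM values Lif, Tm4sf1, Cck, Scgb1b27 and Aldoa (4487 against 12528 CPM) were on the same side of the control as in cKO. Others were not. Wfdc18 made up 0.327% of UMIs in cHet PD against 0.698% in cHet control, but 1.07% in cKO PD against 0.491% in cKO control. Pigr (3613 against 3568 CPM) and Scgb2b27 (10019 against 10426 CPM) were near level in cHet. Lcn2 had 0 UMIs in these 3 cells, against 785 CPM in cKO PD, where its count per cell ran from 0 to 92. With so few cells its level in cHet PD cannot be set, since the limit of 84.7 CPM covers counting error only.

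Between the control libraries few genes were called. Over all selected cells, of 3405 genes considered 32 (0.94%) were called higher and 108 (3.17%) lower in cKO control than in cHet control, with a median log2 ratio of 0.11. TMM scaling moved the log2 ratios of this pair by 0.108. The largest lower ratios were those of Calm4 (38.4-fold), Mal (41.9-fold), Spink5 (25.97-fold), Hopx (73.2-fold), Gsto1 (13.3-fold), Dmkn (16.9-fold), Ly6g6c (26.4-fold) and Fam25c (22.3-fold). These are genes of differentiated surface epithelium for the most part. Nccrp1 and Ereg, at 0 UMIs in cKO control, were at least 68.5-fold and 33.3-fold lower by the limits of their intervals. The largest higher ones were Adh7 (18.9-fold), Epas1 (11.4-fold), Ap4e1 (15.8-fold), Sult1d1 (13.4-fold), Slc6a6 (4.72-fold), Ccn1 (4.95-fold), Cxcl2 (6.27-fold), Dsc3 (5.31-fold) and Abi3bp (at least 16.3-fold). The 8 cKO control cells poor in Car6 held 172 of 180 Adh7, 139 of 155 Epas1 and 104 of 108 Ap4e1 UMIs. They also held 246 of 283 Slc6a6, 168 of 189 Ccn1 and 83 of 84 Abi3bp UMIs. When only cells with at least 10 Car6 UMIs were used, 24 genes were called higher and 16 lower, of which 19 and 12 were among the first calls, and the cells poor in Car6 therefore carried most of the lower calls.

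Among the gland products called higher in both sets of cells, Dcpp3 and Dcpp1 each lay in 1 cell of cKO control. Pip, a secreted protein of saliva and tears, had 281 UMIs in cKO control and 36 in cHet control, or 241 (214 to 271) against 42.2 (29.5 to 58.4) CPM, 5.72-fold (4.04 to 8.34) over all selected cells and 5.59-fold (3.94 to 8.15) in those with 10 Car6 UMIs. However, 141 of the 281 UMIs lay in 1 cell, the same that held all 968 Dcpp3 UMIs, and Pip was found in 13 of 52 cells of cKO control and 10 of 36 of cHet control. Foxi1 was at 0.81 on the log2 scale and not called, and Car6 (0.03), Ltf (-0.16), Slc12a2 (-0.07), Ano1 (0.09) and Aqp5 (-0.03) were near level.

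By list, 4 of 18 transcription factors were at least 1.5-fold higher and none lower (median 0.23), against 7.84% and 5.73% of all 6250 genes with 20 UMIs and an all-gene median of 0.11. Ion and water transport genes had 3 of 24 higher and 1 lower (median 0.15), with Aqp3 (1.47), Aqp4 (1.18) and Car2 (0.64) higher and Chrm1 (-0.59) lower. Secretory pathway genes had 1 of 27 higher and 1 lower, and O-glycosylation enzymes none of 9 higher and 1 lower. Mucosal defence genes had 2 of 12 higher and 5 lower (median -0.39), duct genes 1 of 15 higher and 6 lower (median -0.38), and serous genes 3 of 7 higher and none lower (median 0.30), the 3 being Dcpp3, Dcpp1 and Pip with the single cells just described. Interferon genes had 1 of 11 higher and 2 lower, and immediate early and dissociation genes 7 of 26 higher and 3 lower. Myoepithelial genes (5 of 6 higher) and cell cycle genes (7 of 9 higher) included the Acta2, Mylk, Stmn1 and Ube2c counts of single cKO control cells given above. Keratinocyte genes had 3 higher and 11 lower of 16 with a median of -1.06, which was 0.39 among cells with at least 10 Car6 UMIs.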

How the data were processed

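The deposited files hold raw UMI counts per gene and barcode, which per the submitters' processing notes the authors produced using fastp and STARsolo (version 2.7.10a), with mm10 as the genome. Barcodes with at least 200 genes and at most 20% mitochondrial UMIs were kept, and counts of identifiers with the same symbol (43 symbols) were summed. The members and gene lists were chosen with earlier results of these data known. Counts of the selected cells were added up within each library and scaled to CPM. Intervals are exact Poisson, binomial (Clopper-Pearson) or conditional binomial intervals at 95%. Named genes are the rule's genes, list members with at least 20 UMIs, the 25 genes with the largest ratio to other cells, and the 10 largest called ratios in each direction of a pair. Mitochondrial, ribosomal, immunoglobulin, sex-linked and predicted genes were not named under the last parts of that rule. The minimum of 40 cells for a fold was lowered to 25 after the data were seen. The 119 cells were clustered with scanpy 1.11.5 (1000 variable genes, 15 components, Leiden resolution 0.5, seed 1). TMM factors came from edgeR 4.0.16. The size calls were tested on counts simulated with counting error only. Variation between cells and between libraries was not simulated, so that test cannot show its part in the calls. Motifs were searched in RefSeq promoters of GRCm38.p6, and gene positions came from GENCODE M21.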

Additional observations from a re-analysis of the deposited data

Results flagged for a closer look

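Cells with at least 100 UMIs each of Car6 and Ltf were a smaller share in PD than in control with the cHet label, at a log2 ratio of -3.12, and a larger share with the cKO label, at 1.07. The directions were opposite in the 2 genotypes, and the difference between them was not tested, since each group was 1 library. With a minimum of 30 UMIs in place of 100 the cHet log2 ratio was -3.66, and with cells under 1501 UMIs left out the ratios at 100 UMIs were -2.53 and 1.48.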

How the results depend on the processing

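No paired analysis was possible because no group had a second library, and the settings on Car6, on Car6 with Ltf and on the Col1a1-rich cell were chosen after seeing the data. Of the alternatives, 133 kept a summary value, 27 moved one and 4 reversed one, while 412 kept a single gene's ratio, 58 weakened a gene's ratio below the call and 20 reversed one. The share of cells was 0.190%, 0%, 0.235% and 0% with 10 marker UMIs, and 0.0253%, 0%, 0.0130% and 0% after thinning to 1000 UMIs. A mitochondrial cap of 10% gave 0.140% in cHet control, 0.0121% in cHet PD, 0.358% in cKO control and 0.405% in cKO PD. This changed the order of the 2 cKO shares, whose ratio at the 20% cap had an interval of 0.381 to 1.01. The Car6 and Ltf cells made up 1.19% in cKO control and 2.49% in cKO PD. Between the controls, higher calls were 50 in the Car6 and Ltf cells, 97 with 20 UMIs and 13 with 50 CPM added, and lower calls were 16 with 10 Car6 UMIs, 11 in the Car6 and Ltf cells and 186 with 20 UMIs. In the cKO pair, higher calls were 369 in the Car6 and Ltf cells and 324 with 20 UMIs, and lower calls 569 with 20 UMIs and 121 with 50 CPM. List medians between the controls were 1.15 for serous genes with 50 UMIs, -0.0404 and -0.0935 for immediate early genes and 0.39 and 0.57 for keratinocyte genes (10 Car6 UMIs, then Car6 and Ltf cells). In the cKO pair they were 0.45 for serous and 0.19 for immediate early genes in the Car6 and Ltf cells, and 0.35 for duct and -0.27 for interferon genes with 50 UMIs. With 10 Car6 UMIs, log2 ratios between the controls were -0.26 for Ap4e1, -0.57 for Slc6a6, -0.38 for Ccn1, 0.0751 for Calm4, 0.62 for Spink5, 0.0866 for Gsto1, 0.49 for Dmkn and 2.89 for Krt2. In the Car6 and Ltf cells they were -0.81 for Adh7, -0.41 for Slc6a6, -0.0462 for Ccn1, 2.01 for Spink5, 0.67 for Gsto1, 1.03 for Dmkn, 0.0633 for Ly6g6c and 1.94 for Krt2. In the cKO pair Epas1 was at 0.37 and Slc6a6 at 0.35 with 10 Car6 UMIs, Ccn1 at 0.50 in the Car6 and Ltf cells, and Fn1 at -0.0175 without the Col1a1-rich cell. These settings use other or fewer cells or genes by construction, and other causes were not tested. Neither pair was run with 10 marker UMIs, the 10% cap or thinning, which left under 25 cells in a library. The 3 cells of cHet PD limit that library to counts.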
